A study of Mus musculus with 10 samples.

Results

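The phosphoinositide kinases and phosphatases described here are 44 mouse genes, chosen by their known function, of the 27179 genes counted in effector memory (EM) γδ T cells. All 44 were found in the count table by Entrez gene ID, and 43 passed the filter on low counts; the class II kinase gene Pik3c2b did not. The cells were sorted as CD62L-CD44+ γδ T cells from spleens of female C57BL/6 mice, 6 to 8 weeks old at the start, with 1 library from each of 5 naïve and 5 pre-exposed mice. The pre-exposed mice had been injected intravenously with 50000 *P. chabaudi*-infected red blood cells and given chloroquine and pyrimethamine from day 14, and the naïve mice received the drugs at the equivalent time without infection. Spleens were taken 12 weeks after the end of drug treatment, so that both groups consist of resting, drug-treated animals. The comparison asks whether the transcripts of these enzymes differed between EM γδ T cells of mice with and without an earlier infection.

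Phosphoinositides are membrane lipids whose inositol ring is phosphorylated and dephosphorylated at several positions, and each resulting lipid recruits its own set of proteins. In T cells, class I PI3K makes PIP3 downstream of antigen, costimulatory and chemokine receptors, which recruits AKT and Tec kinases to the plasma membrane. Lipid phosphatases such as SHIP1 remove PIP3. The class III kinase VPS34 makes PI3P on endosomes and autophagosomes, and myotubularins remove it.

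Mtmr6, Mtmr1 and Mtmr12, all myotubularin genes, had the 3 smallest p-values among the members in the comparison below. The bases before their start sites are shown for that reason. Of these genes, only Mtmr6 had an edgeR adjusted p under 0.05. The sequences are from RefSeq on GRCm38.p6, all on the plus strand, and lie at chr14:60264955-60265179 (Mtmr6), chrX:71364510-71364759 (Mtmr1) and chr15:12204778-12204969 (Mtmr12). The genes themselves span chr14:60265180-60302371, chrX:71364760-71419196 and chr15:12204970-12272240. Each stretch begins 250 bases before the start site in the table and ends before the first annotated base of its gene, which left 225 bases for Mtmr6, 250 for Mtmr1 and 192 for Mtmr12, and is written 5′ to 3′ with matches to 6 motifs in capitals.
Mtmr6: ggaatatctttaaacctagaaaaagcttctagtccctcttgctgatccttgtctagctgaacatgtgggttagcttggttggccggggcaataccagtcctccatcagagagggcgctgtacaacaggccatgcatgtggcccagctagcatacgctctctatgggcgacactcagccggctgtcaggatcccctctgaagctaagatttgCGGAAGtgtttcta
Mtmr1: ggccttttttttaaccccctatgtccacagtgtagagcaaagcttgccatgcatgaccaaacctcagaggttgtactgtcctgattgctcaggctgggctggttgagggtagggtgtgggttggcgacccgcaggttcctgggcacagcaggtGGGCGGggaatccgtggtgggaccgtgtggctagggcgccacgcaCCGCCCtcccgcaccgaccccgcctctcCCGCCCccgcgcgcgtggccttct
Mtmr12: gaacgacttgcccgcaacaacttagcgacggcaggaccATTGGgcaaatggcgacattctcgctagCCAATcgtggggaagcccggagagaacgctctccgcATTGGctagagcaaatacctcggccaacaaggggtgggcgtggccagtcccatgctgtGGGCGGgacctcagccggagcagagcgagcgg

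The motifs, searched on both strands, were the GC box (GGGCGG), the CCAAT box (CCAAT), an ETS core (CGGAAG), an E-box (CACGTG), a FOXO element (GTAAACA) and a TATA box (TATAAA), and none of these letter strings contains another. Within the bases shown, the Mtmr6 stretch held 1 ETS core and no other motif, Mtmr1 held 3 GC boxes, and Mtmr12 held 1 GC box and 3 CCAAT boxes. No motif was common to the 3 stretches. Of the 44 members, 38 had an entry in the promoter table, and 52 promoters of members, each taken as the 250 bases before the start, were searched. A GC box stood in 65.4% of them, against 56.2% of the promoters of all tested genes and 32.7% of all promoters. The ETS core stood in 30.8% of the members' promoters, 25.3% of those of tested genes and 13.6% of all. The corresponding shares were 38.5%, 35.6% and 33.8% for the CCAAT box, and 3.85%, 8.33% and 6.02% for the E-box. They were 7.69%, 2.21% and 3.17% for the FOXO element, which was found in 4 member promoters, and 7.69%, 6.63% and 12.4% for the TATA box. A match of letters describes the window and does not show that a factor binds there.

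Total counts per library ranged from 6587199 to 22542832 and did not separate the groups (exact permutation test, two-sided, p = 0.825). Other library properties went with the groups. Immunoglobulin transcripts made up 0.0845% to 0.737% of the counts in naïve and 0.345% to 6.68% in pre-exposed mice (exact permutation test, two-sided, p = 0.0317). The correlation across genes between transcript length and a library's deviation from the mean was between 0.26 and 0.41 in the naïve libraries and between -0.54 and 0.27 in the pre-exposed ones (exact permutation test, two-sided, p = 0.0159). The 10 most abundant genes accounted for 24.7% of the library of pre-exposed mouse 5, compared with 10.2% or less elsewhere. The labels describe the libraries of pre-exposed mice 2, 3 and 4 without the index pair given for all others. All 8 genes of the γδ T cell list had counts in every library. Their sum was 6998 to 11698 counts per 1e6 (CPM) in naïve mice. In pre-exposed mice 1 to 5 it was 4585, 11191, 12252, 9856 and 15139 CPM. Trdc, the δ chain constant gene, was at 1826 to 3873 CPM in naïve mice and 1141, 2271, 3082, 1875 and 3626 CPM in pre-exposed mice. For both, pre-exposed mouse 1 lay below the naïve range. Trac, the α chain constant gene, was also found in every library, at 127 to 228 CPM in naïve and 270 to 507 CPM in pre-exposed mice. The members are mostly long transcripts, since 39 of the 43 tested were longer than the median tested gene (median 4279 against 2665 bases). The Spearman correlation of length with log2 fold change was -0.15 among members and -0.51 over all tested genes. A fit that removes the length trend is given below. Because the trend went with the groups, that fit may also remove other group differences that go with length. It therefore does not give the part of the trend in the members' differences.

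Levels of different genes were compared as RPKM, which are CPM divided by transcript length in kilobases. The libraries of sorted EM γδ T cells contained transcripts of nearly all of the 44 listed enzymes. Markers of other cells were also found, as given below, so the cell of origin of each transcript is not shown. In naïve mice 23 members had a mean above 10 RPKM, and 2 had a mean under 1 RPKM (Pip4k2b and Pik3c2b). The highest was Pik3cd, the leukocyte-enriched class I catalytic subunit p110δ, at 68.2 ± 14 RPKM (SD, n = 5). It was followed by Inpp5k, an inositol polyphosphate 5-phosphatase also called SKIP, at 57.0 ± 9.0 RPKM, and Sacm1l, the PI4P phosphatase SAC1 of the endoplasmic reticulum, at 54.8 ± 11 RPKM. Neighbours in the order of the 44 genes could rarely be told apart. The ranges of the 5 naïve mice overlapped in all but 1 of the 43 neighbouring pairs, the exception being Pip4k2b over Pik3c2b, the last pair. In pre-exposed mice the order was led by Inpp5k at 49.2 ± 14 RPKM, Inpp5b at 39.8 ± 15 RPKM and Pik3cd at 37.1 ± 22 RPKM (SD, n = 5).

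**Figure D1:**
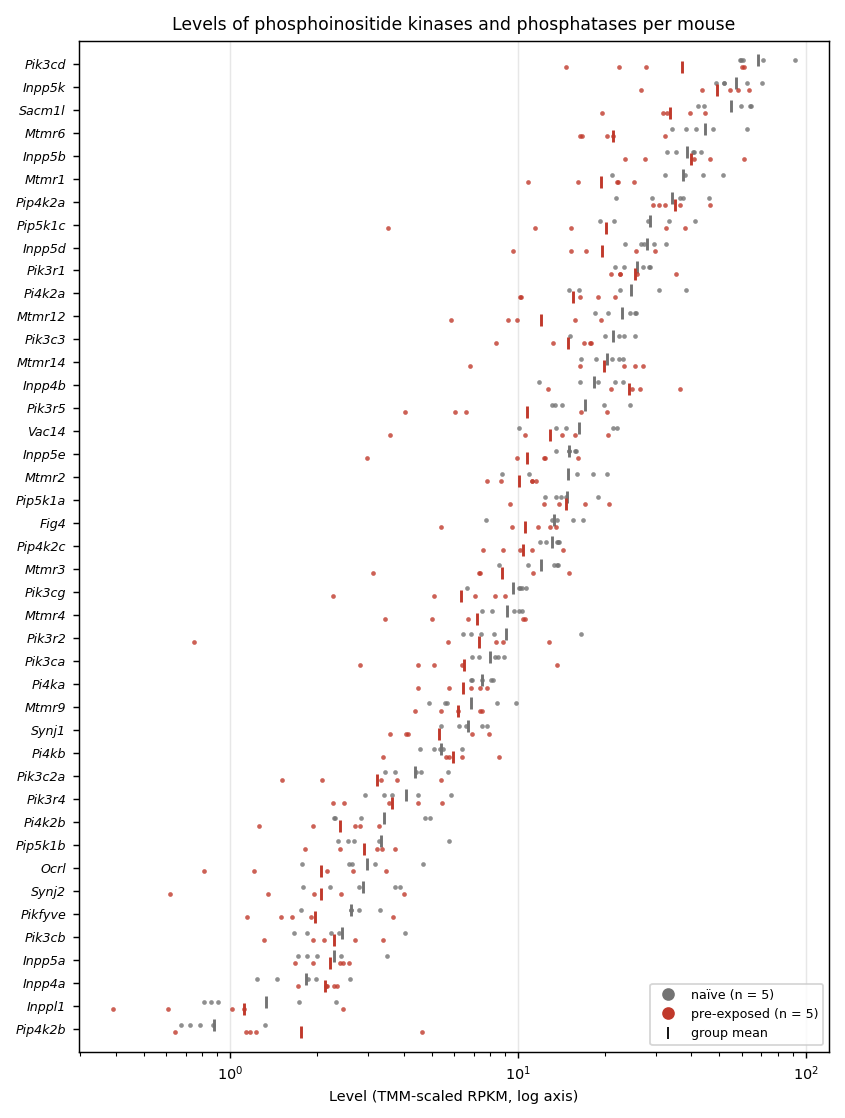
TMM-scaled RPKM of the 43 tested members on a log axis, ordered by the naïve mean, with a point per mouse (grey naïve, red pre-exposed, n = 5 each) and a tick for each group mean. Pik3cd led in naïve mice at 68.2 RPKM, Pip4k2b was lowest of those drawn at 0.874 RPKM, and the red points spread farther to the left than the grey points in most rows.

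Between the groups, 1 of the 43 tested members was called by the quasi-likelihood test of edgeR at an adjusted p under 0.05, Mtmr6, which was lower in pre-exposed mice. None was called higher. Over all 12655 genes tested, 1.18% were called lower and 5.12% higher, so the members' count of calls was close to the background for lower genes. The fold changes of the members lay mostly below 0. Of the 43, 36 had a log2 fold change under 0, and the median was -0.33, whereas 48.7% of all tested genes were under 0 and their median was 0.018. An unadjusted p under 0.05 was reached by 5 members, all of them lower, which is 11.6% of members. Of all genes 8.74% reached it below 0 and 24.3% in either direction. With the length trend removed, 29 members lay below 0, and their median was -0.16, against -0.0072 for all genes. No member was called in that fit (0.308% of all genes were called lower). In bulk RNA, fewer cells that contain a transcript and less of it per cell cannot be told apart.

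**Figure D2:**
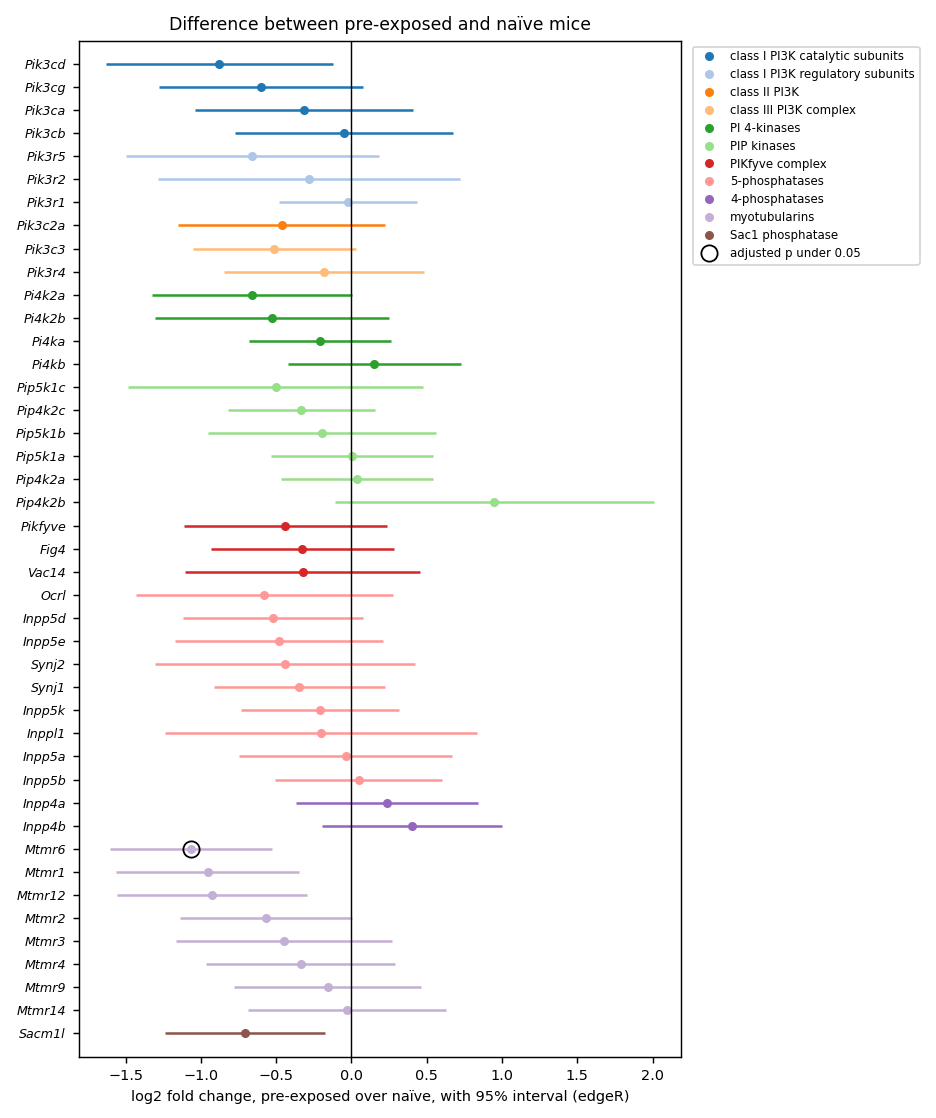
Log2 fold change of pre-exposed over naïve mice for the 43 tested members with its 95% interval from edgeR, coloured by enzyme group, with a ring at an adjusted p under 0.05. The ring stands at Mtmr6 (-1.06), 36 points lie left of 0, and Pip4k2b is farthest to the right at 0.95.

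The myotubularins, which take the 3-phosphate off PI3P and PI(3,5)P2, had the lowest median of the groups with more than 1 tested member, -0.51. All 8 lay below 0, 1 was called and 3 had an unadjusted p under 0.05. The summed level of the group was 139 to 198 RPKM in naïve and 83.7 to 131 RPKM in pre-exposed mice, ranges that did not overlap. The sums of all other enzyme groups overlapped. Mtmr6 and Mtmr1 made up 26.4% and 21.8% of the myotubularin sum in naïve mice on average, so the sum is not independent of these genes. It is not corrected for the length trend. Mtmr6, known in T cells as a negative regulator of a calcium-activated potassium channel through PI3P, was read at 240, 182, 131, 159 and 146 CPM in the naïve mice, in the order of mice 1 to 5 used throughout. The pre-exposed values were 124, 63.1, 77.8, 64.2 and 82.1 CPM. Every pre-exposed mouse lay below every naïve mouse, a pattern that held for 2.17% of all tested genes. The log2 fold change was -1.06 ± 0.25 (SE, n = 5 per group; edgeR adjusted p = 0.0287), and an exact permutation test of the group means gave p = 0.00794, the smallest that 5 against 5 allow. The call was lost when any of naïve mice 1, 2 and 4 or pre-exposed mice 2, 3 and 4 was left out, with adjusted p from 0.0538 to 0.103, and with the length trend removed the log2 fold change was -0.84 (edgeR adjusted p = 0.0748). It was also lost with the library description as a covariate (edgeR adjusted p = 0.221), with the replicate block (edgeR adjusted p = 0.0833) and under voom with eBayes or TREAT (limma adjusted p = 0.0514 and 0.622). The lower level was seen in pre-exposed mice 2 to 4 (log2 fold change -1.39, edgeR adjusted p = 0.000761) and, without a call, in mice 1 and 5 (-0.69, adjusted p = 0.34), each against all 5 naïve mice, which the 2 fits share.

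Mtmr1, a close relative of the gene mutated in X-linked myotubular myopathy, was read at 204, 238, 98.3, 149 and 176 CPM in naïve and at 103, 50.3, 75, 102 and 117 CPM in pre-exposed mice 1 to 5. Only naïve mouse 3 lay within the range of the pre-exposed mice. Its log2 fold change was -0.95 ± 0.28 (SE, edgeR adjusted p = 0.0581), and it did not pass the threshold. Mtmr12, a catalytically inactive myotubularin that acts as an adaptor for active ones, was read at 115, 116, 83.3, 92.5 and 110 CPM in naïve mice and 87.5, 26.4, 41.8, 71.3 and 44.7 CPM in pre-exposed mice. The groups overlapped by the pair of naïve mouse 3 and pre-exposed mouse 1. Its log2 fold change was -0.93 ± 0.30 (SE, edgeR adjusted p = 0.0723). Mtmr1 and Mtmr12 were both called lower by DESeq2, which called 3 members lower, where 2.7% of all genes were called lower. The inactive Mtmr9 and the PI3P phosphatases Mtmr2, Mtmr3, Mtmr4 and Mtmr14 had log2 fold changes between -0.57 (Mtmr2, edgeR adjusted p = 0.208) and -0.03 (Mtmr14, adjusted p = 0.967).

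Within the myotubularin group, the balance of members also varied between mice. Mtmr6 made up 26.4 ± 3.3% of the summed RPKM in naïve and 20.5 ± 4.3% in pre-exposed mice, and Mtmr14, also called Jumpy, 12.4 ± 2.5% and 19.5 ± 9.9% (SD, n = 5). The range of Mtmr14 was wide in the pre-exposed mice, from 7.57% in mouse 5 to 32.3% in mouse 2. The shares are not corrected for the length trend, and Mtmr14 (2676 bases) is shorter than Mtmr6 (3837 bases). Its shares in mice 2, 3 and 4 were 32.3%, 25.5% and 19.4%, where the length correlations were -0.54, -0.42 and -0.24. Mouse 5, with the lowest share, had a correlation of -0.14. The part of the length trend in these shares was not tested.

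SAC1, encoded by Sacm1l, was read at 222, 204, 144, 220 and 152 CPM in naïve mice and 153, 67, 135, 109 and 113 CPM in pre-exposed mice. Pre-exposed mouse 1 overlapped with naïve mice 3 and 5, and the other 4 were lower than any naïve mouse. Its log2 fold change was -0.71 ± 0.25 (SE, edgeR adjusted p = 0.0982). Of the exonic bases of Sacm1l, 50.6% are shared with Slc6a20b on the opposite strand. Because the strand setting of the counting is not given in the sources used here, reads of the 2 genes may not be separated. Shared exonic bases above 10% were found for 3 other members, Inpp5e (21.1%), Pi4kb (20.5%) and Pik3c2a (16.8%), all with genes on the opposite strand.

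Among the class I PI3K catalytic subunits, all 4 had log2 fold changes below 0 and none was called. Pik3cd was read at 319, 322, 326, 382 and 496 CPM in naïve mice and 328, 79.5, 150, 325 and 121 CPM in pre-exposed mice. Pre-exposed mice 1 and 4 lay within the naïve range, whereas mice 2, 3 and 5 lay below all naïve mice. Its log2 fold change was -0.88 ± 0.35 (SE, edgeR adjusted p = 0.14). The other lymphoid catalytic subunit, p110γ, encoded by Pik3cg and activated by chemokine receptors, had a log2 fold change of -0.60 ± 0.32 (SE, edgeR adjusted p = 0.264). The broadly expressed Pik3ca and Pik3cb, encoding p110α and p110β, had values of -0.32 and -0.05 (edgeR adjusted p = 0.603 and 0.947).

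The class I catalytic pool was dominated by p110δ in naïve mice, where Pik3cd made up 74.4% to 81.0% of the summed RPKM of the 4 genes. In pre-exposed mice its share was 76.4%, 60.8%, 72.2%, 81.7% and 49.1% in mice 1 to 5, so that mice 2, 3 and 5 lay below the naïve range. The share of Pik3ca was 21.1% and 29.9% in mice 2 and 5, against 6.08% to 11.6% in naïve mice. Its level was 61.4 to 79.9 CPM in naïve mice, 45.5 CPM in pre-exposed mouse 2 and 121 CPM in mouse 5. In mouse 2 its share was thus larger although its level was below that of every naïve mouse. These shares are a description of each library, without a test and without a correction for the length trend.

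The regulatory subunits differed from one another in how they spread. Pik3r1, which encodes p85α and its shorter forms, was the most even, at 160, 212, 211, 200 and 172 CPM in naïve and 156, 166, 192, 167 and 261 CPM in pre-exposed mice. The groups overlapped throughout, and the log2 fold change was -0.02 with a 95% interval from -0.48 to 0.43 (edgeR adjusted p = 0.965). Pik3r5, encoding the p101 partner of p110γ, was read at 57.1, 62.1, 58.7, 86.4 and 107 CPM in naïve mice and 88.7, 28.8, 26.4, 72 and 17.6 CPM in pre-exposed mice. Pre-exposed mice 2, 3 and 5 lay below all naïve mice, as they did for Pik3cd. Its log2 fold change was -0.66 ± 0.39 (SE, edgeR adjusted p = 0.32). Pik3r2, encoding p85β, was at 2.36 CPM in pre-exposed mouse 5 and between 18.1 and 52 CPM in the other 9 mice. In that mouse Pik3r1 was also the highest and Pik3r5 the lowest of all mice. There p85α made up 88.1% of the summed regulatory RPKM, against 36.3% to 64.7% in the others.

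**Figure D3:**
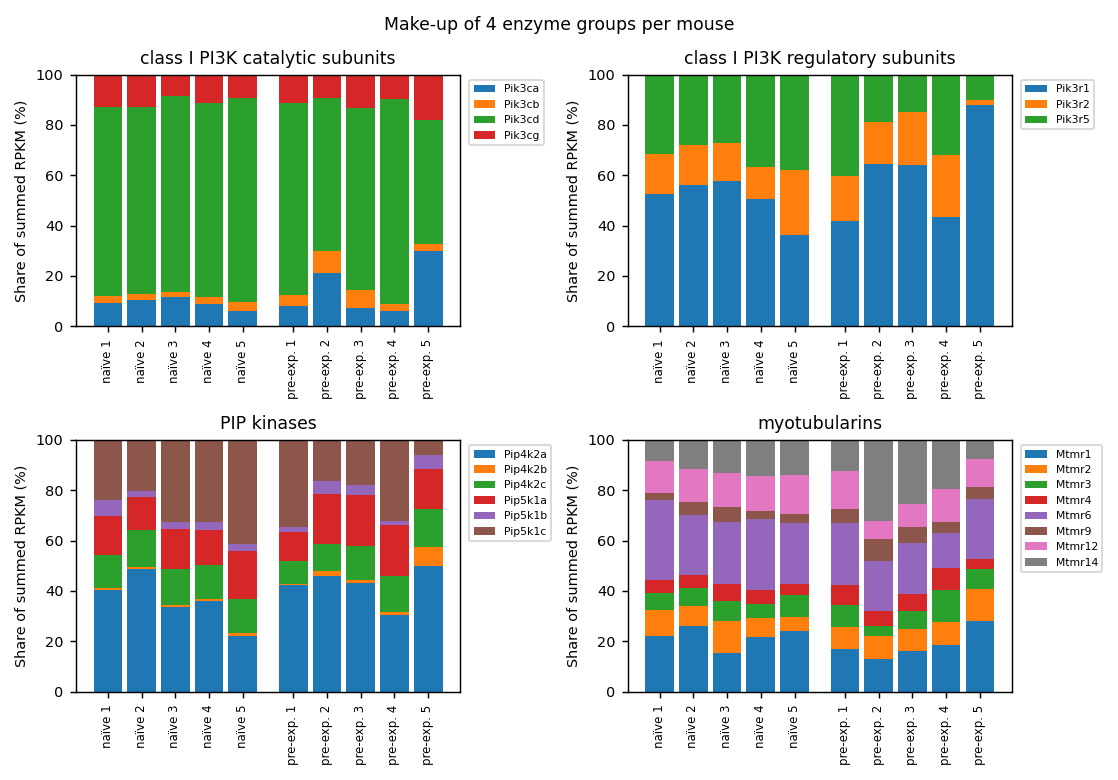
Share of each member in the summed RPKM of its enzyme group, as stacked bars per mouse, for the class I PI3K catalytic and regulatory subunits, the PIP kinases and the myotubularins. Pik3cd fills 74.4% to 81.0% of the catalytic bar in naïve mice and 49.1% to 81.7% in pre-exposed mice, and Pik3r1 fills 88.1% of the regulatory bar of pre-exposed mouse 5.

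The PI3K classes that act on internal membranes were not called. Pik3c3, encoding VPS34, was read at 69.7, 62.3, 46.8, 79.2 and 72.1 CPM in naïve and 52.6, 41.1, 55, 55.6 and 26 CPM in pre-exposed mice. Naïve mouse 3 lay among the pre-exposed mice and the other 4 naïve mice lay above all of them. Its log2 fold change was -0.51 ± 0.25 (SE, edgeR adjusted p = 0.23), whereas that of its partner VPS15, encoded by Pik3r4, was -0.18 ± 0.31 (adjusted p = 0.761). The class II gene Pik3c2a, whose kinase works in clathrin-mediated endocytosis, was read at 29.9, 45.7, 35.4, 37 and 27.7 CPM in naïve and 30.6, 12.1, 26.8, 16.7 and 43.2 CPM in pre-exposed mice. Mice 2, 3 and 4 were the lowest and mouse 5 was within the naïve range (log2 fold change -0.46 ± 0.32, SE, edgeR adjusted p = 0.393). Pik3c2b had at most 3.03 CPM, in naïve mouse 3, and at most 1.11 CPM in all other mice, so no difference was detectable at this depth.

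PI 4-kinases make PI4P, the precursor of most plasma membrane PIP2. The type II enzyme gene Pi4k2a was read at 61.2, 56.7, 85.5, 116 and 144 CPM in naïve and 71.6, 61.8, 38.2, 82 and 38.5 CPM in pre-exposed mice. The groups overlapped, with naïve mice 3, 4 and 5 above every pre-exposed mouse. The log2 fold change was -0.66 ± 0.31 (SE, edgeR adjusted p = 0.209). Pi4k2b, Pi4ka and Pi4kb had log2 fold changes of -0.53, -0.21 and 0.15 (edgeR adjusted p = 0.393, 0.597 and 0.771), and Pi4ka was among the most even members in naïve mice, with a coefficient of variation of 8.24%.

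The PIP kinases, which add the second phosphate to make PIP2, gave 3 log2 fold changes below and 3 above 0, with none called. Their most abundant member by RPKM, Pip4k2a, a PI5P 4-kinase, was read at 127, 159, 102, 130 and 75.9 CPM in naïve and 161, 112, 127, 107 and 102 CPM in pre-exposed mice. The groups overlapped, and the log2 fold change was 0.04 with a 95% interval from -0.47 to 0.55 (edgeR adjusted p = 0.944). Its paralog Pip4k2b had the largest log2 fold change above 0 of all members, 0.95 ± 0.50 (SE, edgeR adjusted p = 0.256). It was read at 4.4, 3.41, 3.97, 3.66 and 6.65 CPM in naïve mice and 3.23, 6.23, 5.73, 5.9 and 23.4 CPM in pre-exposed mice. The value rested on pre-exposed mouse 5, without which it was 0.30 (edgeR adjusted p = 0.574). Pip5k1c, whose kinase makes PIP2 at adhesion sites, went the opposite way in that mouse, at 15.1 CPM against 49.1 to 176 CPM in the other 9 mice. Pip5k1a, with a log2 fold change of 0.00 (95% interval -0.54 to 0.54), and Pip5k1b and Pip4k2c, with values of -0.20 and -0.33, completed the group.

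PIKfyve makes PI(3,5)P2 on late endosomes, on a scaffold of VAC14 together with the phosphatase FIG4. Pikfyve was read at 19.9, 37.1, 29.7, 29.7 and 31.5 CPM in naïve and 18.5, 12.9, 21.5, 16.9 and 41.2 CPM in pre-exposed mice. Pre-exposed mouse 5 was the highest of all 10 mice, and mice 1, 2 and 4 were below all naïve mice (log2 fold change -0.44 ± 0.32, SE, edgeR adjusted p = 0.414). Vac14 ran the other way in mouse 5, at 10.9 CPM, whereas the other pre-exposed mice had 47.6, 32, 43.1 and 62 CPM. Naïve mice had 41, 44.4, 30.5, 64.6 and 66.6 CPM. Apart from mouse 5 the groups overlapped fully, and the log2 fold change was -0.32 ± 0.37 (SE, edgeR adjusted p = 0.624). That of Fig4 was -0.33 ± 0.29 (adjusted p = 0.513).

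Of the 9 inositol 5-phosphatases, 8 lay below 0 and none was called. Inpp5d encodes SHIP1, the haematopoietic enzyme that turns PIP3 into PI(3,4)P2. It was read at 116, 147, 132, 135 and 162 CPM in naïve and 127, 47.5, 75.2, 147 and 84.8 CPM in pre-exposed mice, so that mice 2, 3 and 5 were again below the naïve range and mice 1 and 4 within it. The log2 fold change was -0.52 ± 0.28 (SE, edgeR adjusted p = 0.271). SHIP1 was the main SHIP transcript per length in every mouse, since the RPKM ratio of Inpp5d to Inppl1, which encodes the broadly expressed SHIP2, was 14.1 to 36.6 in naïve and 9.51 to 39.0 in pre-exposed mice. Inpp5k was read at 185, 164, 129, 137 and 137 CPM in naïve and 115, 153, 144, 167 and 70.7 CPM in pre-exposed mice, with overlapping groups and a log2 fold change of -0.21 (95% interval -0.73 to 0.32, edgeR adjusted p = 0.641). Inpp5e, an enzyme of the primary cilium in other cells, was even in naïve mice, at 55.9 to 65.9 CPM, and at 50.7, 51.2, 40.9, 66.5 and 12.4 CPM in pre-exposed mice, of which 4 lay below and mouse 4 just above the naïve range (log2 fold change -0.48, adjusted p = 0.382). The others were Inpp5b (0.05), Inpp5a (-0.04), Inppl1 (-0.20), Synj1 (-0.34), Synj2 (-0.44) and Ocrl, the gene of Lowe syndrome (-0.58), given as log2 fold changes with edgeR adjusted p of 0.394 or more.

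Both inositol 4-phosphatases, which remove PI(3,4)P2, had log2 fold changes above 0, and neither was called. Inpp4b was read at 89.5, 95.1, 77.9, 67.8 and 48.6 CPM in naïve and 109, 151, 102, 86.4 and 52.1 CPM in pre-exposed mice. Pre-exposed mice 1, 2 and 3 were above all naïve mice and mice 4 and 5 within their range (log2 fold change 0.40 ± 0.28, SE, edgeR adjusted p = 0.395). Inpp4a had a value of 0.24 ± 0.28 (adjusted p = 0.648). The RPKM ratio of Inpp4b to Inpp4a was at least 5.86 in every mouse.

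**Figure D4:**
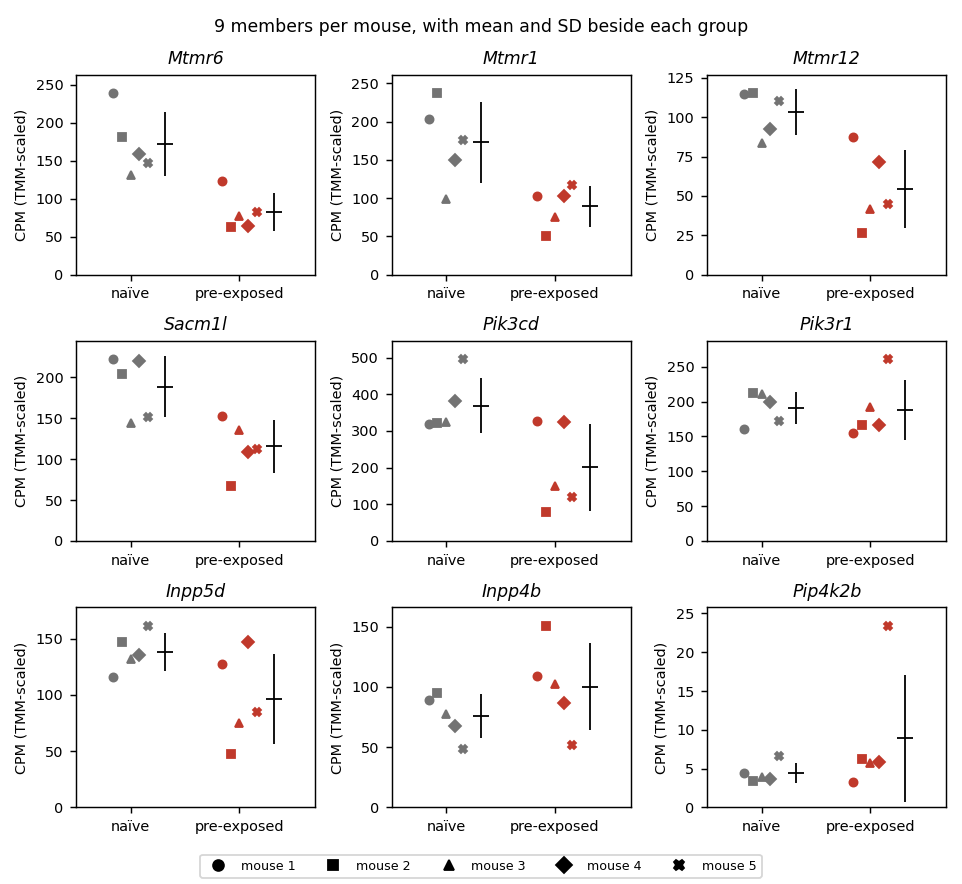
TMM-scaled CPM of 9 members in each mouse, with a symbol per mouse number and the mean ± SD (n = 5) beside each group. Mtmr6 is the panel without overlap (131 to 240 CPM in naïve, 63.1 to 124 CPM in pre-exposed mice), and Pip4k2b shows the single high value of 23.4 CPM in pre-exposed mouse 5.

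The pre-exposed mice differed among themselves more than the naïve mice did. The median coefficient of variation of the 43 members was 24.4% in naïve and 36.7% in pre-exposed mice, and over all tested genes it was 25.0% and 41.6%. Pre-exposed mouse 5 had the lowest value of the 10 mice in 18 members (41.9%, against 29.1% of all tested genes) and mouse 2 in 15 members (34.9%, against 15.5%). Both were far below the naïve mean for some members, such as Pik3cd, Pik3r5 and Mtmr12, with log2 deviations of -2.19, -1.32 and -1.95 in mouse 2 and -1.59, -2.02 and -1.19 in mouse 5. The lowest of all 10 mice was mouse 2 for Pik3cg (15.8 CPM), Ocrl (4.18 CPM) and Mtmr3 (17.8 CPM), and mouse 5 for Pik3r2, Pip5k1c, Vac14 and Inpp5e. The median deviation of the members from the naïve mean on the log2 scale was -0.11, -0.64, -0.38, -0.08 and -0.68 in pre-exposed mice 1 to 5, beside values of -0.03, 0.03, 0.05, 0.15 and -0.17 over all genes in the same libraries.

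**Figure D5:**
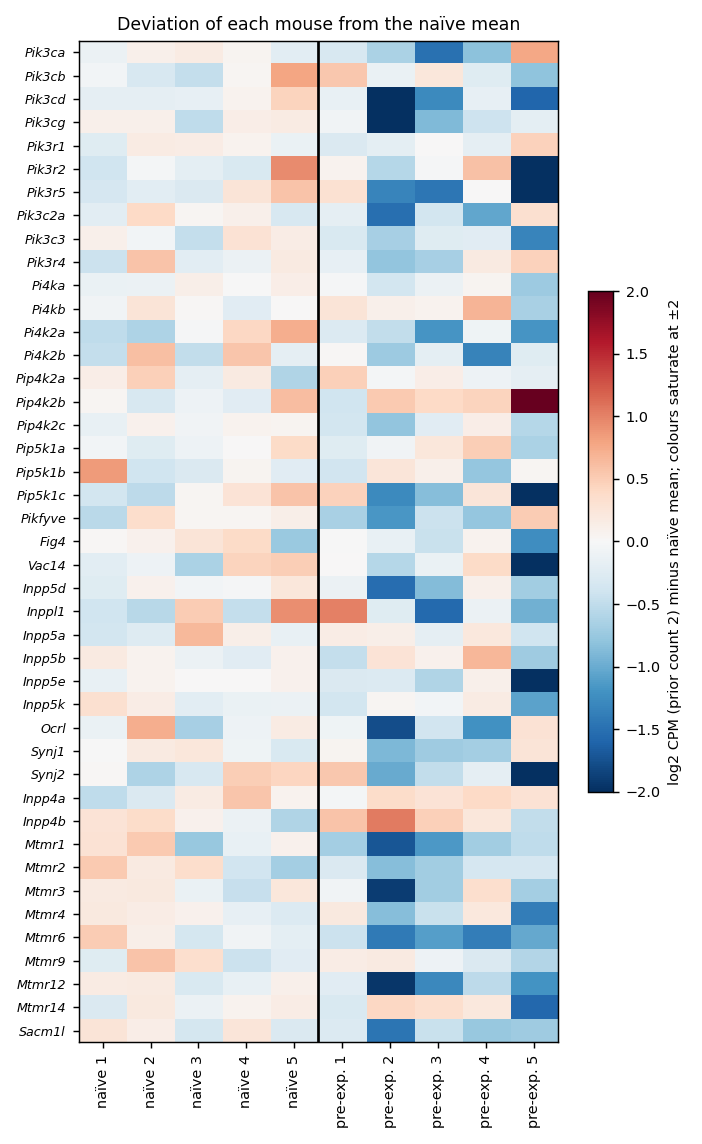
Log2 CPM (prior count of 2) of each tested member in each mouse minus its naïve mean, members in rows grouped by enzyme class and mice in columns, with colours saturated at ±2. The columns of pre-exposed mice 2 and 5 hold most of the dark blue fields, and the rows of Mtmr6, Mtmr1 and Mtmr12 are blue in all 5 pre-exposed mice.

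Taking the pre-exposed mice by the description of their libraries, mice 2 to 4 against all naïve mice gave 12 members lower and none higher, where 14.5% of all genes were called lower and 15.1% higher. The 12 were Pik3ca, Pik3cd, Pik3cg, Pik3c2a, Pikfyve, Ocrl, Synj1, Sacm1l and the myotubularins Mtmr1, Mtmr2, Mtmr6 and Mtmr12. Mice 1 and 5 against the same naïve mice gave no member, where 0.206% of all genes were called, all of them higher. Without pre-exposed mouse 5, 5 members were called lower (Mtmr1, Mtmr12, Mtmr6, Pik3ca and Pikfyve; 5.72% of all genes), and without pre-exposed mouse 1, 4 were (Mtmr1, Mtmr12, Mtmr6 and Sacm1l; 3.91% of all genes). Whether the library description, the length trend or the mice themselves account for the split was not tested. The 95% intervals over all 10 mice excluded a 2-fold decrease for 20 of the 43 members and a 2-fold increase for 41 of them.

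Of 103 other genes of phosphoinositide signalling, 95 were tested, and edgeR called 4 higher and 2 lower, where 5.12% of all genes were called higher and 1.18% lower. None of the lower calls was left without any 1 naïve mouse or without pre-exposed mouse 2, 3 or 4, and none of the higher calls without pre-exposed mouse 2. With the replicate block, the covariate for library description or voom, no pathway gene was called in either direction. Pik3ip1, a transmembrane inhibitor of PI3K, differed by -0.09 on the log2 scale (95% interval -0.57 to 0.38). Among the other lipid phosphatases Sbf2, an inactive myotubularin-related protein, was lower, with 8.53 to 14 CPM in naïve and 1.35 to 5.3 CPM in pre-exposed mice (log2 fold change -1.40, edgeR adjusted p = 0.0397).

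In the phospholipase C and diacylglycerol kinase list, Plcg2 was higher and Plcb4 lower. Plcg2, a phospholipase Cγ that hydrolyses PIP2 and is best known from B and myeloid cells, had 12.3 to 19.2 CPM in naïve and 21.3 to 48.6 CPM in pre-exposed mice (log2 fold change 1.14, edgeR adjusted p = 0.0337). Plcb4 had 19.5 to 37.9 and 8.36 to 22.5 CPM (log2 fold change -1.16, edgeR adjusted p = 0.0448). Snx3, a sorting nexin that binds PI3P, was higher by 0.79 on the log2 scale (edgeR adjusted p = 0.0453), and its groups did not overlap. No gene was called among the AKT and mTOR list (20 tested, lowest p for Tsc2, log2 fold change -0.74, adjusted p = 0.21), the inositol phosphate list (15 tested, Itpr3, -1.03, adjusted p = 0.0869) or the PI synthesis and transfer list (7 tested, Pitpnm1, -0.80, adjusted p = 0.265).

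The 2 genes with the largest increases were Btk and Dok3. Btk, a PIP3-binding Tec kinase of B and myeloid cells, was read at 0.514, 0, 0.336, 1.42 and 0.144 CPM in naïve and 20.7, 21.4, 3.58, 5.69 and 0 CPM in pre-exposed mice 1 to 5 (log2 fold change 4.65 ± 0.92, SE, edgeR adjusted p = 0.0133). Dok3, an adaptor of the same cells, was at 12.7, 8.76, 6.13, 4.51 and 0.182 CPM in pre-exposed mice and at most 1.82 CPM in naïve mice (log2 fold change 3.03, adjusted p = 0.0329). Pre-exposed mouse 5 lay within the naïve range for both. Among the pre-exposed mice, the summed levels of the dendritic cell, monocyte and macrophage, B cell and neutrophil marker lists were lowest in mouse 5. The 7 conventional dendritic cell markers summed to 64.9 to 140 CPM in naïve mice, whereas the pre-exposed sums were 1207, 1884, 933, 696 and 125 CPM, with 4 of 7 tested genes called higher. The 8 monocyte and macrophage markers summed to 478 to 1124 CPM and 421 to 1828 CPM (4 of 5 tested called higher), and the 7 B cell markers to 44.2 to 98.7 CPM and 43.2 to 159 CPM (3 of 4 tested called higher), with Pax5 at 0 in every library. Ccr2 held most of the naïve monocyte and macrophage sums, and Cd79b most of the naïve B cell sums. Ccr2 was at 442 to 988 CPM in naïve and 310 to 615 CPM in pre-exposed mice. Csf1r went the other way, at 0.517 to 11.5 CPM in naïve mice and 99.1, 77.3, 30.6, 29.1 and 0.545 CPM in pre-exposed mice 1 to 5. The 6 neutrophil markers summed to 0 to 21.3 CPM in naïve and 0 to 257 CPM in pre-exposed mice (0 of 2 tested called). Other lists had another order, as the NK cell and erythroid sums were highest in pre-exposed mouse 5. The 7 NK cell markers summed to 1198 to 2294 CPM in naïve mice, to 1533 to 3163 CPM in the other pre-exposed mice and to 5429 CPM in mouse 5 (1 of 7 called higher), and the 5 erythroid markers to 79.6 to 459 CPM, 325 to 1721 CPM and 2040 CPM (4 of 5 called higher). The 6 αβ T cell markers summed to 1642 to 1992 CPM in naïve and 1576 to 3289 CPM in pre-exposed mice, lowest in mouse 1 (1 of 6 called higher). The part of such cells in Btk, Dok3, Plcg2 or any member was not tested.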

How the data were processed

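EM γδ T cells from 5 naïve and 5 pre-exposed mice were profiled by RNA-sequencing. The authors aligned read pairs to mm10 with Subread, counted them per Entrez gene with featureCounts, and deposited whole-number counts per gene without normalization. Neither their versions nor the strand setting is stated in the paper or labels. The library kit is SMART ultra-low input in the paper and TruSeq in the labels.

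Genes were filtered with filterByExpr (13534 kept), 767 genes without a symbol and 112 immunoglobulin genes were left out as in the paper's methods, and the remaining 12655 were tested. After TMM scaling, all 10 libraries entered 1 quasi-likelihood fit without covariates (edgeR 4.0.16, R 4.3.3), with Benjamini-Hochberg adjustment over all tested genes and a threshold of 0.05. CPM and RPKM used TMM-scaled library sizes. Exact permutation tests were two-sided, and for genes compared mean log2 CPM (prior count 2). Voom with TREAT at 1.5-fold (limma 3.58.1) and DESeq2 1.42.0 were alternatives. So were other scalings, filters and dispersions, a gene length offset (loess, span 0.3) and the replicate number as a block. Subsets by library description and each library left out were also fitted. The paper names voom with TREAT as well. It lists far more differing genes than voom with TREAT called here (2), but fewer than the main edgeR fit called (797). That list was therefore not reproduced, and the reason was not tested. The edgeR test with either dispersion method or the length offset, DESeq2, and voom with TREAT or eBayes were also run on simulated counts. A gene without counts in a library may have up to 3 counts at 95% confidence, which is 0.146 to 0.545 CPM, and this covers counting error only. No 2 libraries of the same group agreed within sampling noise.

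The members and gene lists were chosen with earlier results of these data known. Values per mouse are given for members called by edgeR and, in each enzyme group, for the member with the highest mean RPKM and that with the smallest p. Mtmr1, Mtmr12 and single values of other members were added after their values were seen. Of the other pathway genes, Pik3ip1 and up to 3 called genes of each list, or the gene with the smallest p, are named, and 1 gene that the rule also names is not reported here. Replicate numbers are not stated to pair the mice. Members in the promoter table were matched by gene ID.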

Additional observations from a re-analysis of the deposited data

Results flagged for a closer look

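Among 86 groups of 5 values of the 43 tested members, 5 had a highest or lowest mouse whose gap to the next exceeded 0.71 of the whole range (Dixon's criterion at 95%), where chance gives about 1 in 20 groups. In naïve mice these were Pik3cg, low in mouse 3 at 46.3 CPM (gap 0.891 of the range), and Pik3r2, high in mouse 5 at 52 CPM (0.735). In pre-exposed mice they were Pik3r2 (0.711) and Inpp5e (0.711), both low in mouse 5, and Inpp4a, low in mouse 1 at 11.7 CPM (0.723). By the same criterion naïve mouse 4 stood apart in its share of immunoglobulin transcripts, at 0.737% (0.862), and pre-exposed mouse 5 in the share of its 10 most abundant genes, at 24.7% (0.792).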

How the results depend on the processing

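The median log2 fold change of the members stayed below 0 in every alternative, from -0.43 under voom and -0.45 with pre-exposed mice 2 to 4 only to -0.16 with the length trend removed, and no alternative called a member higher. The number called lower, 1 in the main test, was 12 with pre-exposed mice 2 to 4 only, 3 with DESeq2, and 0 with the length trend removed, with the covariate for description style, with mice 1 and 5 as the only pre-exposed mice, or under voom with TREAT or eBayes. Leaving out single libraries gave 0 to 5 members lower, 0 to 5 pathway genes higher, 0 to 6 pathway genes lower and 81 to 1996 of all genes called, against 797 in the main test. Of all genes, 358 were called with the older edgeR dispersion method, 214 with the length trend removed, 40 with the description style as a covariate, 27 with pre-exposed mice 1 and 5 only, 3903 with mice 2 to 4 only, 1350 with DESeq2, 2 with voom and TREAT and 96 with voom and eBayes. Pathway genes called higher, 4 in the main test, were 1 with the older dispersion method, 2 with the length trend removed and 0 with the covariate, mice 1 and 5 only or voom. Pathway genes called lower, 2 in the main test, were 1 with DESeq2 size factors or no filter, 16 with mice 2 to 4 only, and 0 with the older dispersion method, the length trend removed, the covariate, mice 1 and 5 only or voom. The cause was not tested. The paper lists many more differing genes from voom with TREAT than the 2 that this method called here, so its list was not reproduced. Its list is shorter than the 797 genes of the main test.

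Libraries with the same replicate number did not deviate together (correlations of -0.10, -0.13, 0.0012, 0.053 and -0.26), so the numbers were not taken to pair mice. With the replicate block 55 genes were called, and with the replicate block and the length trend removed 24, with 0 members and 0 pathway genes in either direction; the members' median was -0.41 and -0.18.

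Of the 15 members named by rule, 4 changed sign, none of them called. Their main values were -0.02 (Pik3r1), -0.46 (Pik3c2a), -0.44 (Pikfyve) and 0.04 (Pip4k2a). Pik3r1 was 0.38 with the length trend removed, 0.34 with the replicate block as well, 0.12 with the covariate, 0.18 with pre-exposed mice 1 and 5 only and -0.20 to 0.036 without single libraries. Pik3c2a was 0.056 with the covariate and 0.11 with mice 1 and 5 only, and Pikfyve 0.044 there. Pip4k2a was -0.10 with mice 2 to 4 only and -0.091 to 0.16 without single libraries. TPM in place of RPKM cannot change the shares within enzyme groups, because within a library both are counts per length times a constant.

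With 5 libraries per group and the spread between pre-exposed mice, the intervals left a 2-fold decrease possible for all but 20 of the 43 tested members.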
